A study of Mus musculus with 4 samples.

Results

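MHC class II molecules display peptides from endocytosed proteins to CD4+ T cells. The genes described here are 7 that make, load and switch on these molecules: H2-Aa, H2-Ab1, H2-Eb1, H2-DMa, H2-DMb1, Cd74 and Ciita. They were chosen by name as class II chain, peptide loading and transactivator genes, and all 7 were among the 22558 genes of the deposited table. RNA came from eyes of Abca4-/-Rdh8-/- mice aged 6 weeks. Without these photoreceptor proteins all-trans-retinal is cleared slowly, and bright light damages the retina. The 4 groups were mice kept without light exposure and mice sampled 3 h, 24 h or 7 days after it, each described as eyes of 3 mice. All groups carry the same 2 deletions, including the group without light, so no wild-type eye entered any comparison. Whole eye is the labelled tissue, although the extraction text speaks of removed retinas. Lens and skeletal muscle genes were present in every sample, with Cryaa between 23585 and 27439 FPKM and Ckm between 170.0 FPKM (at 24 h) and 279.7 FPKM (at 3 h). FPKM are sequenced fragments scaled to transcript length and library size. The table holds 1 FPKM value per gene and group, so no difference below has a replicate check and no p-value is given.

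A class II molecule is a pair of an alpha and a beta chain that is assembled in the endoplasmic reticulum around the invariant chain. Once in the endosome the invariant chain is cut down, and the DM molecule exchanges its last fragment for an antigenic peptide. Dendritic cells, macrophages and B cells carry class II constitutively, while resting microglia carry little. Transcription depends on the coactivator CIITA, which interferon gamma can induce in many cell types and which is recruited by factors bound to the X and Y boxes of class II promoters.

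Class II promoters share these boxes, and they are shown for the genes whose promoter sequences hold both in the usual order. The sequences are from RefSeq, build GRCm38.p6, on the strand of the gene and 5′ to 3′, and each ends upstream of the annotated transcription start. The deposited values were made on mm9, and no coordinate of that build was used. Capitals mark the X box core GNAAC and the Y box TGATTGG. Promoters of 4 of the 7 genes were matched (H2-Aa, H2-Eb1, H2-DMb1 and H2-DMa), and H2-Ab1, Cd74 and Ciita are named only.
H2-Aa, chr17:34287852-34287919, minus strand: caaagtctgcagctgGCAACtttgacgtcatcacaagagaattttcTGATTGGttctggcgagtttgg
H2-Eb1, chr17:34305761-34305827, plus strand: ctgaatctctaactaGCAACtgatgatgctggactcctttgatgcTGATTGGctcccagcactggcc
H2-DMb1, chr17:34153082-34153149, plus strand: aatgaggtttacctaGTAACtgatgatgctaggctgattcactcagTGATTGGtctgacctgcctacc
H2-Ob, chr17:34238803-34238867, plus strand: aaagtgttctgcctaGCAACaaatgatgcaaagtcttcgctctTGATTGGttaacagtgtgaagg
H2-Oa, chr17:34092288-34092355, plus strand: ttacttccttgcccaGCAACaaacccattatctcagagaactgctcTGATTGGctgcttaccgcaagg
H2-Eb2, chr17:34325528-34325594, plus strand: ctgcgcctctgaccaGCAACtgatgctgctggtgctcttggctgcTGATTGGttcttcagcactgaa

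In these 6 promoters the X core lay between 76 and 132 bases before the start, and 23 to 26 bases separated it from the Y box. The pair was searched on both strands of 300-base windows (250 bases before to 50 after the start), with 10 to 30 bases allowed between the boxes. It was found in 191 of 32851 promoter windows (0.581%), against 6 of the 9 windows of class II genes and 3 of the 5 windows of the 4 matched members. Neither H2-DMa window held the pair, nor did the window of H2-DMb2, the second DM beta gene. The Y box, with or without the X core, was in 7.82% of all windows. It was in 7 of the 9 windows of class II genes and in 4 of 6 windows of class I genes. The letters searched follow the textbook boxes and were set after the class II sequences had been read, and a match describes letters only.

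**Figure D1:**
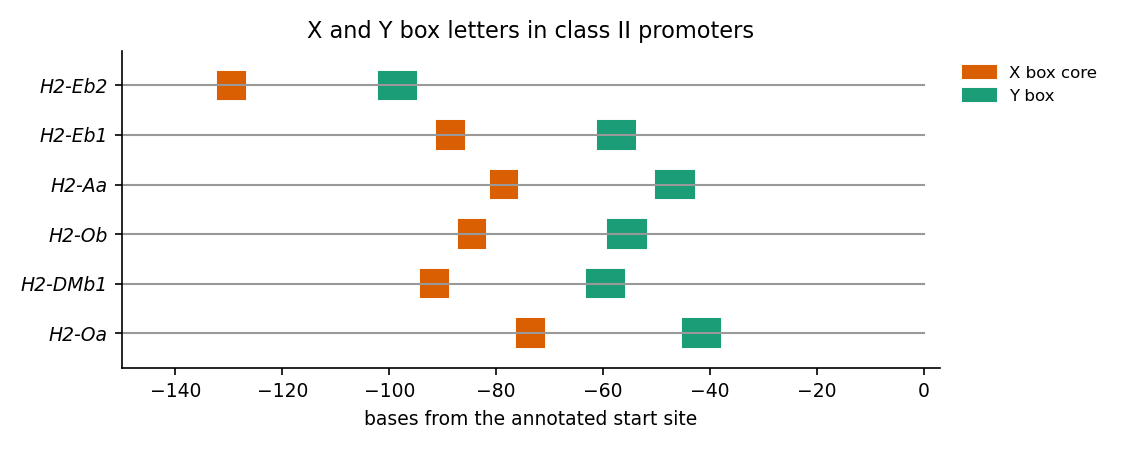
Position of the X box core (orange) and Y box (green) in 6 class II promoters, in bases from the annotated start site at 0. In each promoter the X core lies upstream of the Y box, with 23 to 26 bases between them.

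Class II transcripts were readily detected in eyes without light, and their levels spanned a wide range. Cd74, the invariant chain that chaperones class II and targets it to endosomes, was the most abundant at 69.5 FPKM without light, 68.3 at 3 h, 79.5 at 24 h and 91.8 at 7 days. H2-Aa and H2-Ab1, the alpha and beta chains of the I-A molecule, followed. H2-Aa was at 33.0 FPKM without light, 34.8 at 3 h, 39.8 at 24 h and 50.7 at 7 days. H2-Ab1 was at 28.6 FPKM without light, 27.0 at 3 h, 34.1 at 24 h and 38.6 at 7 days. Both chains were highest in the 7-day sample, and H2-Aa exceeded H2-Ab1 in each of the 4 samples, with a ratio of FPKM between 1.15 and 1.32. H2-Eb1, the beta chain of the I-E molecule, was at 17.5 FPKM without light, 19.4 at 3 h, 21.0 at 24 h and 26.2 at 7 days. The alpha chain partner of I-E, listed as the pseudogene H2-Ea-ps, was at 0 in every sample. In mice of the b haplotype the alpha chain gene of I-E is silent, and the labels used here name no strain.

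The peptide loading genes stood at a lower level than the chains. H2-DMa, the alpha chain of the DM peptide exchanger, was at 4.001 FPKM without light, 4.21 at 3 h, 4.32 at 24 h and 5.51 at 7 days. H2-DMb1, a DM beta chain, was at 4.44 FPKM without light, 3.52 at 3 h, 4.68 at 24 h and 5.95 at 7 days. The order of these neighbours was not stable, since H2-DMb1 was above H2-DMa in 3 samples and below it at 3 h. H2-DMb2 is a close copy, 92.8% identical to H2-DMb1 over 1196 aligned transcript bases with an identical run of 221 bases, so fragments may be divided between them. H2-DMb2 was listed at 0 at 3 h and at 0.0962 FPKM without light, 0.293 at 24 h and 0.531 at 7 days. Ciita was the lowest of the 7, at 0.510 FPKM without light, 0.389 at 3 h, 0.573 at 24 h and 0.588 at 7 days. The 24 h and 7-day values of Ciita are nearly equal, and its 3 h value is the lowest.

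**Figure D2:**
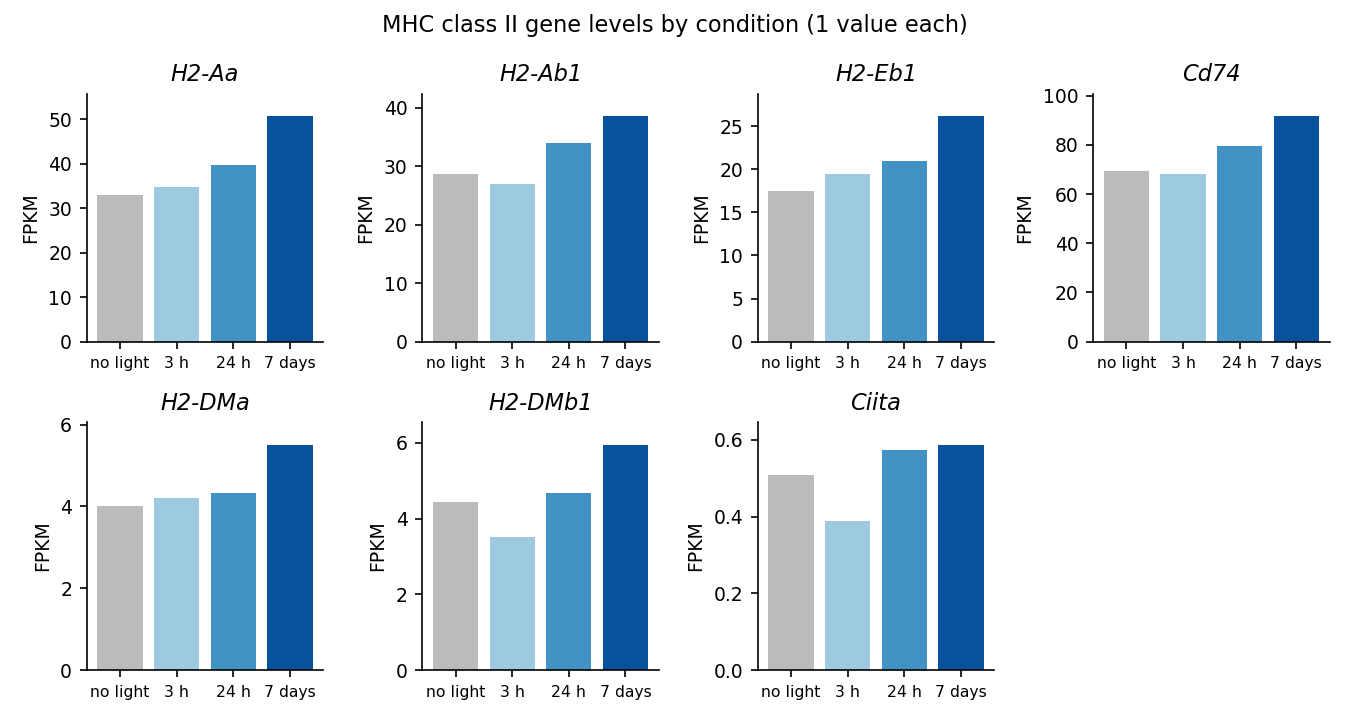
FPKM of the 7 class II genes (each panel with its own axis from 0) without light and at 3 h, 24 h and 7 days after light, 1 deposited value per bar and no error bars. The 7-day bar is the highest in each panel, and for Ciita it exceeds the 24 h bar by little (0.588 against 0.573 FPKM).

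An approximate depth sets how closely single values can be read. Olfactory receptor genes above 0 in 1 sample only had a median of 0.0448 FPKM without light, 0.0467 at 3 h, 0.0349 at 24 h and 0.0255 at 7 days, taken as 1 fragment of a gene of that length. On that scale the counting error of Cd74, H2-Aa, H2-Ab1 and H2-Eb1 was between 1.67% and 5.06% in any sample. It was between 6.54% and 11.5% for the DM genes. For Ciita it was between 20.8% and 34.7%, which is an overestimate because the Ciita transcript is longer than an olfactory receptor gene. Variation between mice is not part of these errors.

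At 3 h the class II genes stood on both sides of the level without light, and none was far from it. H2-Eb1 was highest against the control at 1.11-fold, H2-Aa and H2-DMa were both at 1.05-fold, and Cd74 was at 0.98 of control. H2-DMb1 was at 0.79, H2-Ab1 at 0.94 and Ciita at 0.76 of control. Each change was also expressed on a log2 scale after adding 1 to both FPKM values, a scale that understates changes of low genes, and a gene was called at 1 log2 unit or more. Of the 7 genes, 6 passed the filter of a mean of at least 1 FPKM and Ciita did not. Their median log2 change was 0.02, equal to 0.02 over all 14194 genes that passed, and 3 of 6 lay above 0, as did 54.1% of all genes. None of the 6 was called, against 0.55% of all genes called higher and 0.24% called lower.

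At 24 h all 7 genes stood above their level without light by small amounts. The I-A and I-E chains were higher by nearly the same factor, 1.21-fold for H2-Aa, 1.19-fold for H2-Ab1 and 1.20-fold for H2-Eb1. Cd74 was 1.14-fold higher, H2-DMa 1.08-fold, H2-DMb1 1.05-fold and Ciita 1.13-fold. The median log2 change of the 6 genes was 0.22 against 0.01 over all genes, and all 6 lay above 0, as did 51.3% of all genes. None was called, with 0.747% of all genes called higher and 0.359% lower. The differences of the DM genes and Ciita from control were smaller than their counting errors. The tissue makeup of the 24 h sample differed as well. The 6 rod genes summed to 10168 FPKM without light and 6581 at 24 h (0.647-fold, median log2 change -0.73), and the 6 skeletal muscle genes to 1245 and 809 FPKM (0.650-fold, median -0.63). The part of this shift in the class II values was not tested.

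The 7-day sample held the most class II transcript. H2-Aa was 1.54-fold and H2-Eb1 1.49-fold higher than without light, H2-DMa 1.38-fold, H2-Ab1 1.35-fold, H2-DMb1 1.34-fold, Cd74 1.32-fold and Ciita 1.15-fold. On the log2 scale the 6 genes that passed the filter lay between 0.35 and 0.61, with a median of 0.41 against 0.0025 over all genes, of which 50.7% lay above 0. None was called, as 0.409% of all genes were called higher and 0.19% lower. All 6 exceeded 0.25 log2 units, a smaller step chosen after the values were seen, which 6.12% of all genes reached, and all 6 lay above the 95th percentile of all genes (0.27). All 7 had their highest value of the 4 samples at 7 days, as did 22.3% of all genes. In RNA from whole tissue, more cells that carry class II and more transcript per cell cannot be told apart. The 7-day sample also held male tissue (Ddx3y at 6.59 FPKM, against at most 0.00528 in any other sample), so sex and time cannot be told apart in this comparison. Rod genes summed to 6788 FPKM at 7 days, 0.668-fold of their sum without light, with a median log2 change of -0.61 and 5 of 6 genes at least 0.25 lower. Skeletal muscle genes summed to 1078 FPKM (0.865-fold, median -0.23). FPKM are relative to all RNA of a sample, and the part of the rod difference in the class II values was not tested.

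**Figure D3:**
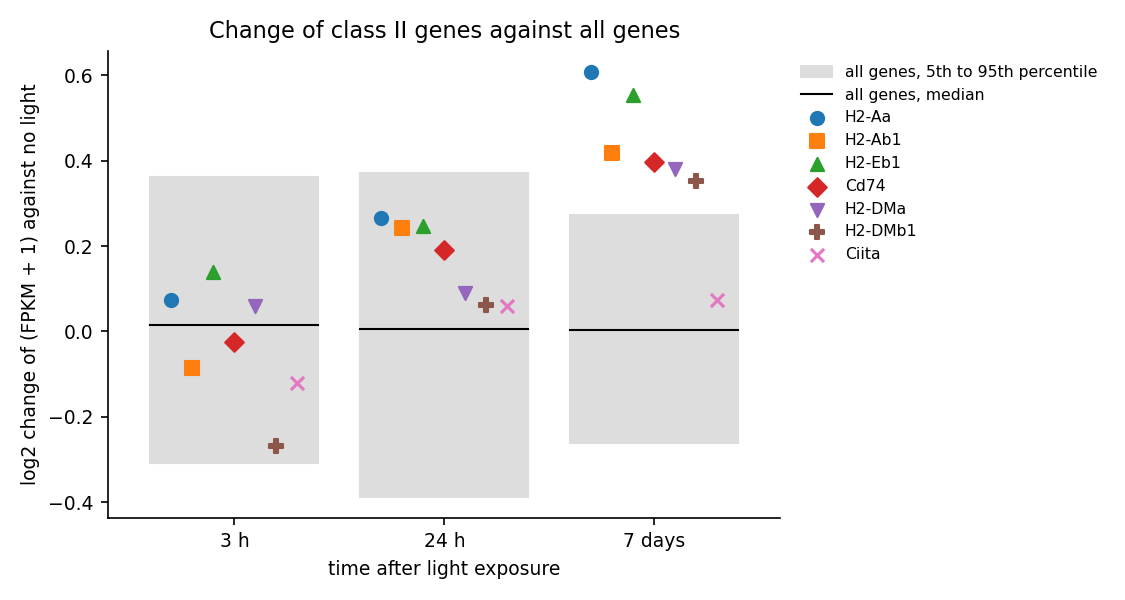
Log2 change of (FPKM + 1) against no light for the 7 class II genes (symbols) at 3 h, 24 h and 7 days, with the 5th to 95th percentile of 14194 genes in grey and their median as a black line. At 7 days all genes but Ciita (0.07) lie above the grey range, whose upper end is 0.27, while at 3 h and 24 h all 7 lie inside it.

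Direct comparison of successive times leaves out the shared control. From 3 h to 24 h the median log2 change of the 6 genes was 0.20 against -0.01 over all genes, and it lay above 0 for all 6, as for 47.3% of all genes. H2-DMb1 was 1.33-fold and H2-Ab1 1.26-fold higher at 24 h than at 3 h, H2-DMa 1.03-fold. From 24 h to 7 days the median was 0.29 against -0.01, and again all 6 lay above 0, as for 48.5% of all genes. H2-Aa, H2-DMa and H2-DMb1 were each 1.27-fold higher, H2-Eb1 1.25-fold, Cd74 1.15-fold and H2-Ab1 1.13-fold. These comparisons share the 24 h sample. No member was called in either step, where 0.514% and 0.296% of all genes were called higher and 0.437% and 0.514% lower.

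Within the group, the balance between partners varied less than the levels. The ratio of Cd74 to the summed FPKM of H2-Aa, H2-Ab1 and H2-Eb1 was 0.879 without light, 0.842 at 3 h, 0.838 at 24 h and 0.795 at 7 days. The ratio of H2-Eb1 to H2-Ab1 was 0.611 without light, 0.719 at 3 h, 0.616 at 24 h and 0.678 at 7 days. The ratio of H2-DMa to H2-DMb1 was between 0.901 and 0.926 in 3 samples and 1.20 at 3 h, a departure that rests on the low H2-DMb1 value there. Ciita differed most from the others in its profile. The distance of Ciita from the median profile of the 7 genes was 0.25 on the log2 (FPKM + 1) scale over 4 samples, against 0.03 for Cd74 and 0.18 for H2-DMb1. Its low level also gives Ciita the largest counting error.

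Other class II genes were close to the detection limit. H2-Oa and H2-Ob, the chains of the DO molecule that restrains DM and is typical of B cells, had at most 0.321 and 0.253 FPKM. H2-Oa was at 0.311 FPKM without light, 0.189 at 3 h, 0.321 at 24 h and 0.179 at 7 days, with no steady order. H2-Eb2 was listed at 0 in 3 samples and at 0.00517 FPKM at 7 days. None of the 5 genes of this list that were found passed the filter.

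Genes that prepare class II ligands were also mostly highest at 7 days. All 7 that were found of 9 passed the filter, and 5 of them had their highest value then. Their median log2 change was 0.09 at 3 h, 0.18 at 24 h and 0.36 at 7 days, with none called. Ctss, the cathepsin that cuts the invariant chain in macrophages and dendritic cells, was at 19.8 FPKM without light, 23.3 at 3 h, 22.6 at 24 h and 39.6 at 7 days. That is 1.99-fold at 7 days, more than any of the 7 class II genes. Ctsd, an aspartic protease of lysosomes, was 1.64-fold higher at 7 days. Ifi30, a thiol reductase that opens disulfide bonds of antigens, went from 16.2 to 21.8 FPKM. Ctsl, which cuts the invariant chain in thymic epithelium, was 1.09-fold and Lgmn, an asparaginyl endopeptidase, 1.11-fold higher.

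The factors that bind class II promoters stayed near their control level. The list holds the RFX subunits Rfx5, Rfxap and Rfxank for the X box, the NF-Y subunits for the Y box, and Creb1. Its 7 genes had median log2 changes of -0.03 at 3 h, -0.01 at 24 h and -0.03 at 7 days, with none called. Rfx5 was at 6.27 FPKM without light, 5.63 at 3 h, 5.91 at 24 h and 6.47 at 7 days. The largest departure was that of Creb1 at 24 h, from 13.7 to 17.8 FPKM.

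In the interferon gamma route, 4 of the 8 genes that passed the filter were highest at 24 h and 1 at 7 days. Over all genes these shares were 24.7% and 22.3%. At 24 h 1 of the 8 was called higher than without light, against 0.747% of all genes. From 24 h to 7 days 1 was called lower, against 0.514% of all genes. Ifng itself was listed at 0 in 3 samples and at 0.0235 FPKM at 24 h, and its receptor chains Ifngr1 and Ifngr2 lay between 20.4 and 25.5 FPKM in all samples. Irf8, a myeloid factor, was at 1.66 FPKM without light, 1.60 at 3 h, 3.28 at 24 h and 2.81 at 7 days. Irf1, a factor that binds a Ciita promoter, was at 25.7, 31.4, 31.5 and 28.3 FPKM in the same order.

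Among genes that interferon gamma induces, most peaked at 24 h. Of the 10 that passed the filter, 9 were highest at 24 h, as were 24.7% of all genes, and 1 at 7 days. All 6 class II genes that passed were highest at 7 days. This difference in timing was left untested. Cxcl10 passed the filter only through its 24 h value, and Gbp7 was at 5.24 FPKM at 24 h against 5.19 without light. Among the genes that did not pass, Gbp5 was highest at 24 h, while Gbp4 and Cxcl9 were highest without light and lowest at 24 h. Against no light the list had a median of 0.01 at 3 h, 0.21 at 24 h and 0.09 at 7 days (log2), with none called. Cxcl10, a chemokine for activated T cells, was at 0.642 FPKM without light, 0.740 at 3 h, 2.197 at 24 h and 0.801 at 7 days. The guanylate-binding protein gene Gbp2 was at 8.09, 8.53, 10.7 and 9.35 FPKM in that order. From 24 h to 7 days the list had a median of -0.15, against 0.29 for the class II genes.

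MHC class I genes were also mostly highest at 24 h. Of 7 genes, 5 were highest at 24 h and none at 7 days, and the median log2 change was 0.05, 0.27 and 0.08 at 3 h, 24 h and 7 days, with none called. Nlrc5, the class I counterpart of Ciita, was at 1.13 FPKM without light, 1.20 at 3 h, 2.003 at 24 h and 1.34 at 7 days. The ratio of Ciita to Nlrc5 was 0.451 without light, 0.325 at 3 h, 0.286 at 24 h and 0.438 at 7 days. B2m, the light chain of class I, lay between 284.6 and 326.4 FPKM. The summed FPKM of H2-Aa, H2-Ab1 and H2-Eb1 relative to B2m was 0.278, 0.249, 0.327 and 0.369 in the order of sampling.

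Markers of the cells that can carry class II were measured beside these values. The 12 shared myeloid genes had a median log2 change of 0.09 at 3 h, 0.19 at 24 h and 1.18 at 7 days. In the 7-day sample 7 of them were called higher, against 0.409% of all genes. Their summed level was 117.7, 135.1, 130.3 and 270.9 FPKM, 2.30-fold at 7 days, against 1.39-fold for the summed class II genes. The summed FPKM of H2-Aa, H2-Ab1 and H2-Eb1 relative to that of the complement genes C1qa, C1qb and C1qc was 1.34 without light, 1.07 at 3 h, 1.41 at 24 h and 0.803 at 7 days. H2-Aa relative to Tyrobp, a myeloid signalling adaptor, went from 2.42 to 1.13. Relative to the summed shared myeloid genes, the sum of H2-Aa, H2-Ab1 and H2-Eb1 went from 0.672 without light to 0.426 at 7 days. All of these ratios, which share genes, were lowest at 7 days, where the class II level itself was highest. At 7 days 11 of the 12 genes lay above control, from 1.30-fold for Csf1r to 3.29-fold for Tyrobp, with Itgam at 0.97 of control. The summed H2-Aa, H2-Ab1 and H2-Eb1 were at 1.46-fold and the summed C1q genes at 2.44-fold. In the shared myeloid list only Csf1r and Itgam were below that 1.46-fold. The border macrophage genes, described below, summed to 1.08-fold. The direction of such a ratio therefore depends on the genes chosen for it. The part of myeloid cell number in the class II values was not tested.

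**Figure D4:**
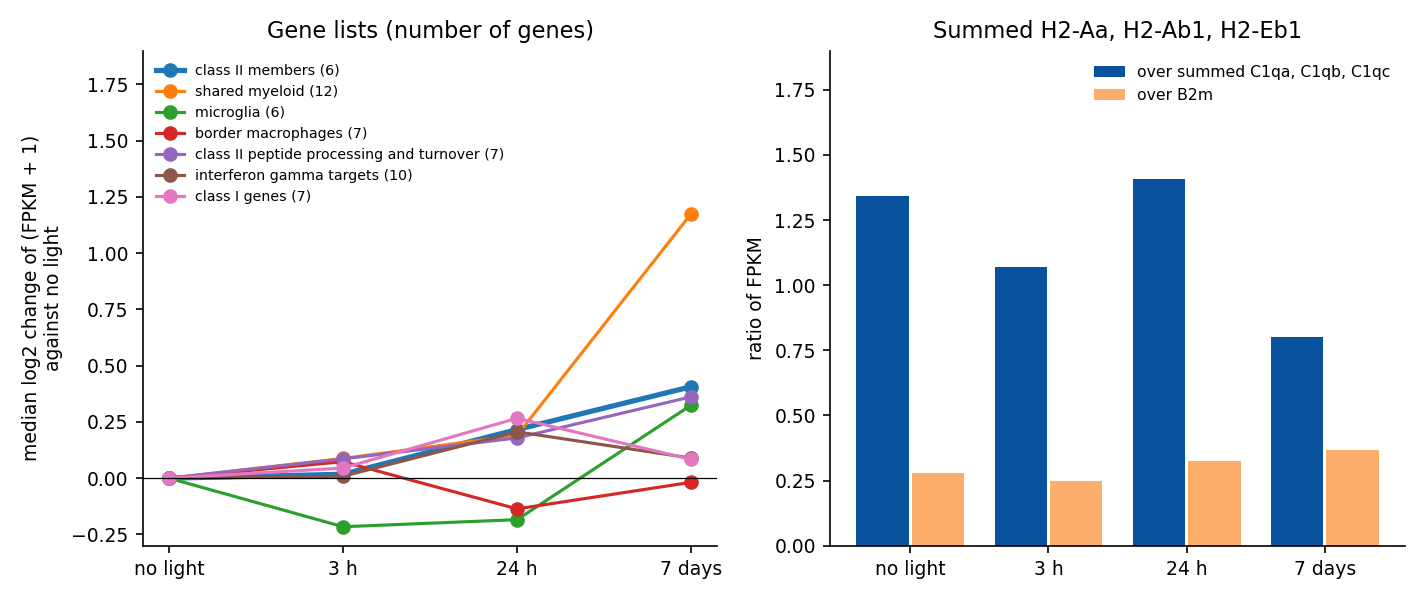
Left, median log2 change of (FPKM + 1) against no light for 7 gene lists (number of genes passing the filter in brackets); right, ratio of the summed FPKM of H2-Aa, H2-Ab1 and H2-Eb1 to C1q genes and to B2m, with sampling times as evenly spaced categories. At 7 days the class II median is 0.41 and the shared myeloid median 1.18, and the ratio to C1q genes is lowest (0.803).

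The finer myeloid lists differed among themselves. All 6 microglia genes that passed, of 7, were highest at 7 days, with median log2 changes of -0.22, -0.18 and 0.32 and none called. Their summed level was 59.9, 58.0, 59.6 and 93.1 FPKM. Cx3cr1, the fractalkine receptor, was at 3.79 FPKM without light, 2.33 at 3 h, 3.16 at 24 h and 6.66 at 7 days. The 7 border macrophage genes had medians of 0.07, -0.14 and -0.02 and a summed level between 28.01 and 32.5 FPKM in all samples, with none called. Mrc1, their mannose receptor, was at 4.77 FPKM without light and 4.70 at 7 days. In that list 2 genes were at least 0.25 log2 units higher at 7 days, Ms4a7 (2.85 to 5.20 FPKM) and Clec4n (0.960 to 1.58 FPKM). At 3 h Clec4n was 1.86-fold and Cd163, a haemoglobin scavenger receptor, 1.77-fold higher than without light. The 6 monocyte genes summed to 87.5, 130.3, 104.0 and 88.4 FPKM, mostly Plac8, and Ccr2 lay between 2.10 and 2.24 FPKM.

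Dendritic and lymphoid markers were low throughout. Of 11 dendritic cell genes, 9 had a mean under 1 FPKM, and the list summed to 6.57, 7.23, 6.32 and 7.39 FPKM. Itgax, the integrin CD11c, was at 0.315 FPKM without light, 0.353 at 3 h, 0.462 at 24 h and 0.688 at 7 days. Cd209a, a lectin of monocyte-derived dendritic cells, was at 0.434, 0.422, 0.354 and 0.951 FPKM, with its highest value at 7 days. Only 2 genes of the list passed the filter, and their median log2 change at 7 days was -0.05. These were Zbtb46 (2.36 FPKM without light and 2.17 at 7 days) and Clec10a (1.37 and 1.34 FPKM). Flt3, Xcr1 and Clec9a were at most 0.455, 0.177 and 0.261 FPKM, and Ccr7 was listed at 0 at 3 h. No B cell gene reached 0.44 FPKM in any sample, the 7 genes summed to between 0.544 and 1.11 FPKM, and Ms4a1, Pax5 and Blk were at 0 at 3 h. The 7 T cell genes summed to between 1.54 and 1.71 FPKM. Ocular surface epithelium genes, which mark tissue where class II-bearing Langerhans cells lie, summed to 2510, 3161, 2966 and 3110 FPKM, with Krt14 called higher at 3 h. The Langerhans marker Cd207 was at 0.240, 0.314, 0.167 and 0.117 FPKM. The part of these cells in the class II values was not tested.

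The 8 other genes nearest to the median class II profile were taken by Euclidean distance between centred log2 (FPKM + 1) values over the 4 samples, among 4880 candidates. They were Espn, Cav1, Cox6b2, Chchd8, Srd5a2, Mlc1, Abca1 and Stfa1, at distances of 0.09 to 0.11. Cav1, the caveolin of endothelial and other membranes, was at 41.3 FPKM without light, 43.8 at 3 h, 49.1 at 24 h and 55.2 at 7 days. Mlc1, a membrane protein of astrocytes and Müller glia, was at 30.4, 31.2, 32.3 and 40.7 FPKM, and Abca1, a cholesterol exporter, at 6.62, 6.99, 7.34 and 8.90 FPKM. With 4 values per gene many profiles lie close together, and none of these 8 belongs to the lists above.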

How the data were processed

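The authors deposited 1 table of FPKM, with 1 value per gene for each of 4 samples. They came from TopHat2 alignments to mm9 and from Cuffdiff 2.2.1, after base calling with bcl2fastq 1.8.3, per the submitters' processing notes. Not given in the sources used here were the annotation, strand handling, treatment of multiply mapped fragments, and whether a value is a pooled library or a mean of 3.

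Differences of log2(FPKM + 1) were computed in Python 3.11.15 with pandas 2.3.3, over genes with a mean of at least 1 FPKM (14194 of 22558). A gene was called at an absolute change of 1. With 1 sample per group no test was run. The calculation was tested on simulated data with changes well past the calling threshold. That simulation does not bear on changes as small as those of the class II genes. Depth was approximated from olfactory receptor genes. The 7 members are named throughout, other genes within fixed lists (138 of 141 entries found, 2 through older symbols; H2-Ea, March1 and March8 matched no symbol), and the 8 nearest profiles by a rule. Members, lists and rules were chosen with earlier results of these data known. Alternatives were other pseudocounts and filters, 2 rescalings and omission of H2-DMb1. The values of some listed genes are not reported here.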

Additional observations from a re-analysis of the deposited data

Results flagged for a closer look

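4 of the 7 genes stood below the level without light at 3 h and above it at both later times, and these differences were not tested because each time has 1 sample. The log2 change of (FPKM + 1) for H2-Ab1 was -0.084 at 3 h, 0.24 at 24 h and 0.42 at 7 days. For H2-DMb1 it was -0.27, 0.06 and 0.35, for Cd74 -0.026, 0.19 and 0.40, and for Ciita -0.12, 0.06 and 0.07. The approximate counting error (SE) of the 3 h change was 0.08 for H2-Ab1, 0.22 for H2-DMb1, 0.05 for Cd74 and 0.66 for Ciita. It applies to the log2 change without a pseudocount, which was -0.087, -0.34, -0.026 and -0.39 in that order. The 3 h values of Cd74 and Ciita were within 1 SE. Those of H2-Ab1 and H2-DMb1 exceeded 1 SE but lay within wider counting limits of 0.16 and 0.43 log2 units. All comparisons share the sample without light.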

How the results depend on the processing

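Under 7 alternatives, the last of them (no pseudocount) added after the data were seen, the median log2 change of the class II genes stayed above 0 at 24 h (0.16 to 0.24) and at 7 days (0.37 to 0.49) against no light, from 3 h to 24 h (0.18 to 0.22) and from 24 h to 7 days (0.26 to 0.33). At 3 h it lay on either side of 0 (-0.03 to 0.06), below 0 without a filter and under both rescalings. No class II gene was called under any of them, and none of 170 single-gene values changed sign. For many of these values the sign could not change. Another pseudocount, or none, keeps the direction of a difference, and omission of H2-DMb1 leaves the values of other genes as they were. Only the values under the rescalings were open to a change of sign, and none of those changed. The rescalings shifted samples by at most 0.05 log2 units. Counts over all genes moved more. With a pseudocount of 0.1 in place of 1, the genes called lower went from 34 to 54 at 3 h, from 51 to 92 at 24 h and from 62 to 99 between 3 h and 24 h, and those called higher between 24 h and 7 days from 42 to 73. With no pseudocount, those lower at 24 h numbered 88. With a mean of at least 5 FPKM, those higher at 7 days went from 58 to 38. No sample could be left out and no paired analysis was possible because each group has 1 value per gene. The depth limits Ciita, H2-DMb2, the DO genes and the lymphoid markers most.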

Other observations

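Costimulatory genes, whose products give T cells the second signal beside class II, showed no common course. Of 5 genes, 3 passed the filter, none was called, and their median log2 change was 0.05 at 3 h, 0.15 at 24 h and 0.23 at 7 days. Icosl, the ligand of ICOS, was at 2.71 FPKM without light, 4.66 at 3 h, 4.05 at 24 h and 3.45 at 7 days, highest at the time when class II was near control. Cd40, a receptor that licenses antigen-presenting cells, was at 1.30, 1.37, 1.55 and 1.69 FPKM. Cd86 was at 0.707 FPKM without light and 0.908 at 7 days, and Cd80 at 0.164 and 0.110. Cd274, which encodes the inhibitory ligand PD-L1, lay between 6.42 and 7.58 FPKM.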
